A study of Homo sapiens with 6 samples.

Results

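The genes described here are the 50 genes of the kinetochore, the centromere and the spindle assembly checkpoint, taken by name from a list of genes whose proteins act there. The list was drawn up with earlier results of these data known. All 50 were among the 19973 genes of the deposited table, and all 50 were among the 12874 genes with enough reads to be tested. Transcripts were counted in cells labelled OVCAR3, an established ovarian cancer line, that had received either shNUF2, a short hairpin against NUF2, or shNC, a negative control hairpin. Each group had 3 libraries, all from a stranded mRNA kit. The shNC libraries carry the genotype label WT and the shNUF2 libraries the label NUF2 knockdown. The hairpins were expressed from a plasmid with a U6 promoter and a puromycin resistance gene. The study calls its NUF2-silenced cells stable, but for the RNA it sequenced it states only that the cells were transfected. Only 1 hairpin against NUF2 was sequenced, so the knockdown and any other effect of this hairpin cannot be told apart. The labels do not say whether libraries of a group came from separate cultures, and the p-values then measure only the spread between these libraries.

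The kinetochore is the protein assembly that joins a chromosome to the microtubules of the mitotic spindle. It is built on nucleosomes that contain the histone variant CENPA, on which the inner kinetochore CENP proteins assemble, and these carry the KNL1, MIS12 and NDC80 complexes of the outer kinetochore. NUF2 is one of the subunits of the NDC80 complex, whose globular heads grip the microtubule. Kinetochores that lack microtubules recruit the checkpoint proteins, which delay anaphase, while the chromosomal passenger complex releases faulty attachments. Many of these genes are transcribed mostly in the G2 and M phases of the cell cycle. In bulk RNA, fewer cells that express a gene and less RNA per cell cannot be told apart.

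Total counts per library ranged from 13057534 to 16995452, and all pairs of libraries within a group differed by more than sampling noise. A count above 0 was seen for 14582 to 14691 genes in the shNC libraries and for 15435 to 15536 in the shNUF2 libraries, and the part of this difference in the results below was not tested. Of 10 ovarian carcinoma and epithelial markers, KRT7, KRT8, KRT18, MSLN and MUC16 were well covered and PAX8, a transcription factor of the Mullerian lineage, was at a mean of 10.1 CPM in shNC, whereas WT1 (0 to 7 counts per library) and KRT19 (1 to 8 counts) were too low to be tested, and EPCAM and CDH1 averaged 3.39 and 1.39 CPM in shNC (CPM: counts scaled to one library size with edgeR's normalisation factors). These markers were thus mixed, and the identity of the line was not tested here. Of the 8 markers of this list that were tested, 3 fell and 4 rose in shNUF2 (adjusted p under 0.05, edgeR), beside 33.8% and 33.9% of all genes tested. On the log2 scale MSLN and MUC16 each fell by 0.75, and KRT8 rose by 1.04. The summed level of 8 leukocyte markers was 1.83 to 3.07 CPM in shNC and 4.30 to 7.46 in shNUF2, with MS4A1 at 0 in all 6 libraries and CD3E at 1 count in 1 of them. Summed endothelial markers (6 genes) stood at 2.25 to 3.45 and 4.82 to 6.69 CPM, and summed fibroblast markers (8 genes) at 84.0 to 90.6 and 69.0 to 76.5. Most of the fibroblast sum was COL1A1, at 79.0 to 85.3 CPM in shNC and 58.9 to 64.3 in shNUF2, with PDGFRA at 0 throughout. Among these markers CDH5, an endothelial cadherin, rose by 3.45 on the log2 scale (1, 1 and 4 counts in shNC, 15, 19 and 27 in shNUF2; adjusted p = 7.15e-06, edgeR). TEK, an endothelial receptor, rose from 1, 6 and 2 counts to 19, 19 and 15 (adjusted p = 0.000116, edgeR). DCN, a fibroblast proteoglycan, rose by 1.22 (adjusted p = 7e-06), whereas COL1A1 and with it the fibroblast sum was lower in shNUF2. The part of these markers in the results below was not tested.

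The stretch of NUF2 that the hairpin matches is shown first because every comparison below rests on it. The 21 bases of the target lie in the coding part of exon 4 of the 14 exons of transcript NUF2-201 (GENCODE release 29, GRCh38, plus strand). They are printed in capitals inside the surrounding exon, and in the guide strand of the hairpin the capitals mark the seed, bases 2 to 8 from its 5′ end.
NUF2 exon 4 (chr1:163328242-163328304): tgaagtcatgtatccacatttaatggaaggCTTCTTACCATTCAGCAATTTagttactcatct
shNUF2 guide strand: aAATTGCTgaatggtaagaag
No transcript of the other 49 genes came close to this target over its whole length. Their best alignments without gaps differed from it at 6 to 10 of 21 bases, and CENPK, NSL1 and ZW10 were the genes with 6. Matches to the seed alone were not searched for. The shNC hairpin was read in the same way, as its longest complementary stretch, which had 20 bases and can include a base of the loop. This stretch matched no gene of the annotation exactly, and shorter parts of it were not searched for.

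NUF2 itself fell in the shNUF2 group, and 2 of the 3 other subunits of the NDC80 complex fell less steeply. NUF2 (ENSG00000143228, chromosome 1, 163266576 to 163355764) was measured at 63.5, 68.6 and 63.5 CPM in the shNC libraries and at 20.9, 22.3 and 25.5 CPM in the shNUF2 libraries. No shNUF2 library came near the control range, and the mean went from 65.2 ± 2.94 to 22.9 ± 2.40 CPM (SD, n = 3 each). On the log2 scale NUF2 fell by 1.51 ± 0.08 (standard error; adjusted p = 2.17e-15, quasi-likelihood test in edgeR, Benjamini-Hochberg adjusted across the 12874 genes).

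SPC24, which with SPC25 forms the end of the complex that faces the chromosome, was at 28.8, 28.0 and 30.1 CPM in shNC and at 16.3, 16.5 and 19.1 CPM in shNUF2. It fell by 0.74 ± 0.10 on the log2 scale (adjusted p = 1.36e-07, edgeR), and its groups did not overlap. NDC80, the subunit that pairs with NUF2 along the length of the complex, was at 72.0, 76.8 and 75.1 CPM against 59.7, 59.3 and 63.6 CPM. This was a smaller fall, of 0.29 ± 0.06 (adjusted p = 6.28e-05), again with every shNUF2 library below every shNC library. SPC25 gave 12.0, 10.8 and 14.1 CPM in shNC and 10.6, 10.5 and 11.9 CPM in shNUF2. The SPC25 ranges overlapped and its log2 fold change of -0.16 ± 0.13 did not pass the test (adjusted p = 0.296), and it ranged from -0.24 without shNC replicate 2 to -0.05 without shNC replicate 3.

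Because levels of different genes can be compared only per length, the balance within the complex was read from FPKM, the deposited read density, scaled by gene length and library total. The ratio of NUF2 to NDC80 was 0.932, 0.944 and 0.894 in shNC, close to equal levels, and 0.369, 0.398 and 0.424 in shNUF2. The ratio of NUF2 to SPC24 went from a mean of 1.90 ± 0.147 to 1.12 ± 0.0326, and that of NUF2 to SPC25 from 2.93 ± 0.497 to 1.13 ± 0.0527 (SD, n = 3). For each of these ratios the 3 shNUF2 libraries lay below the 3 shNC libraries. The exact two-sided permutation test gave p = 0.1 for all 3 ratios, also after Benjamini-Hochberg adjustment over them, which is the smallest value that 3 libraries against 3 allow. Among the 50 genes NUF2 ranked 15 by mean FPKM in shNC (19.6 ± 0.976) and 35 in shNUF2 (6.72 ± 0.728).

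**Figure D1:**
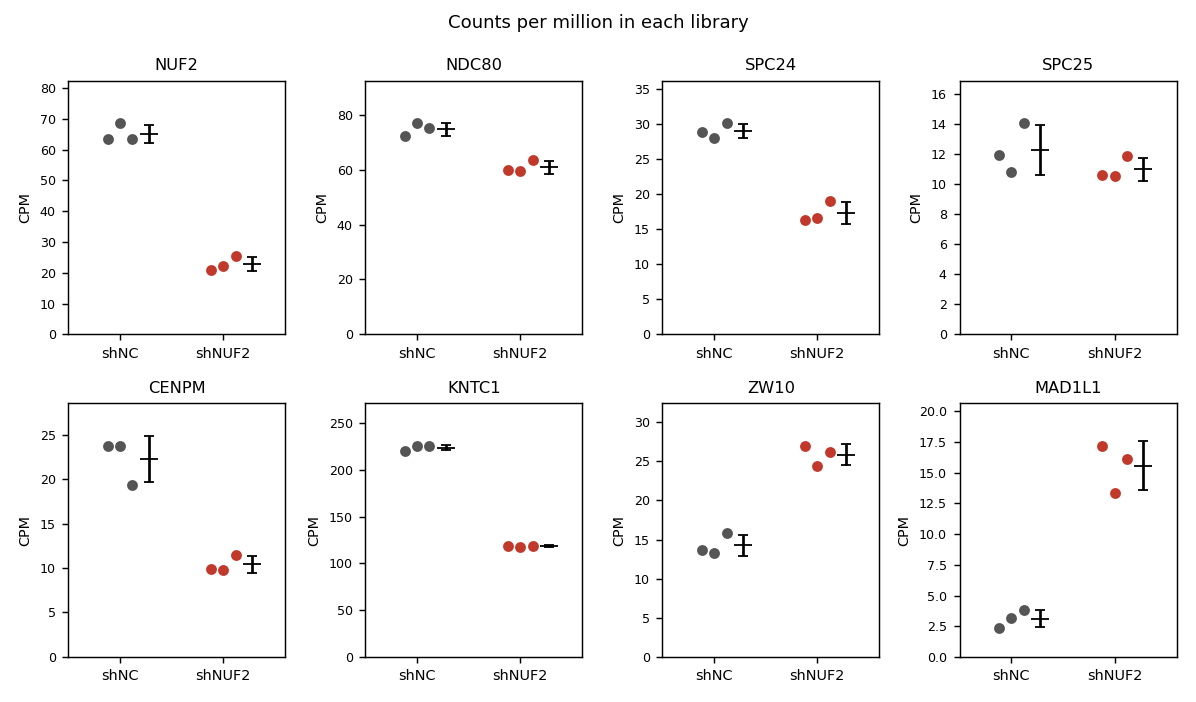
CPM in each library (points; shNC grey, shNUF2 red) with the mean and SD beside them for 8 genes, each on its own axis from 0. NUF2, NDC80, SPC24, CENPM and KNTC1 were lower in every shNUF2 library, ZW10 and MAD1L1 were higher in every one, and the SPC25 groups overlapped.

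Across all 50 genes, 18 fell and 19 rose at an adjusted p under 0.05, and 13 did not pass. Of all genes tested, 33.8% fell and 33.9% rose, so the share of the 50 that moved in either direction (36% and 38%) was near the background. The groups did not overlap for 16 of the 50 on the lower side and for 19 on the higher side, against 35.4% and 35.2% of all genes tested. The changes were mostly small. The median of the absolute log2 fold change was 0.28 over the 50 genes and 0.38 over all genes tested, and 37 of the 50 (74%) changed by less than 0.5, as did 61.5% of all genes. The study called genes by a fold change beyond 1 or -1 and a p under 0.05, read here as a log2 fold change and an unadjusted p, a reading that its text does not state. Past these thresholds were NUF2 and CENPM on the lower side, 2 genes against a background of 4.16%, and MAD1L1 on the higher side, 1 gene against a background of 9.41%. Tested against a change of 1.2-fold instead of any change (edgeR's TREAT), 8 of the 50 fell and 6 rose, beside 21.1% and 23.5% of all genes. The 8 were NUF2, SPC24, NSL1, CENPB, CENPK, CENPM, CENPN and KNTC1, and the 6 were CENPC, CENPT, ZW10, MAD1L1, INCENP and SGO2. Of the 37 calls, 28 held in all the alternatives other than TREAT, and the 9 that did not are named with their genes. The summed FPKM of the 49 genes other than NUF2 was 657.0 to 682.4 in shNC and 648.0 to 685.4 in shNUF2, and these ranges overlapped.

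**Figure D2:**
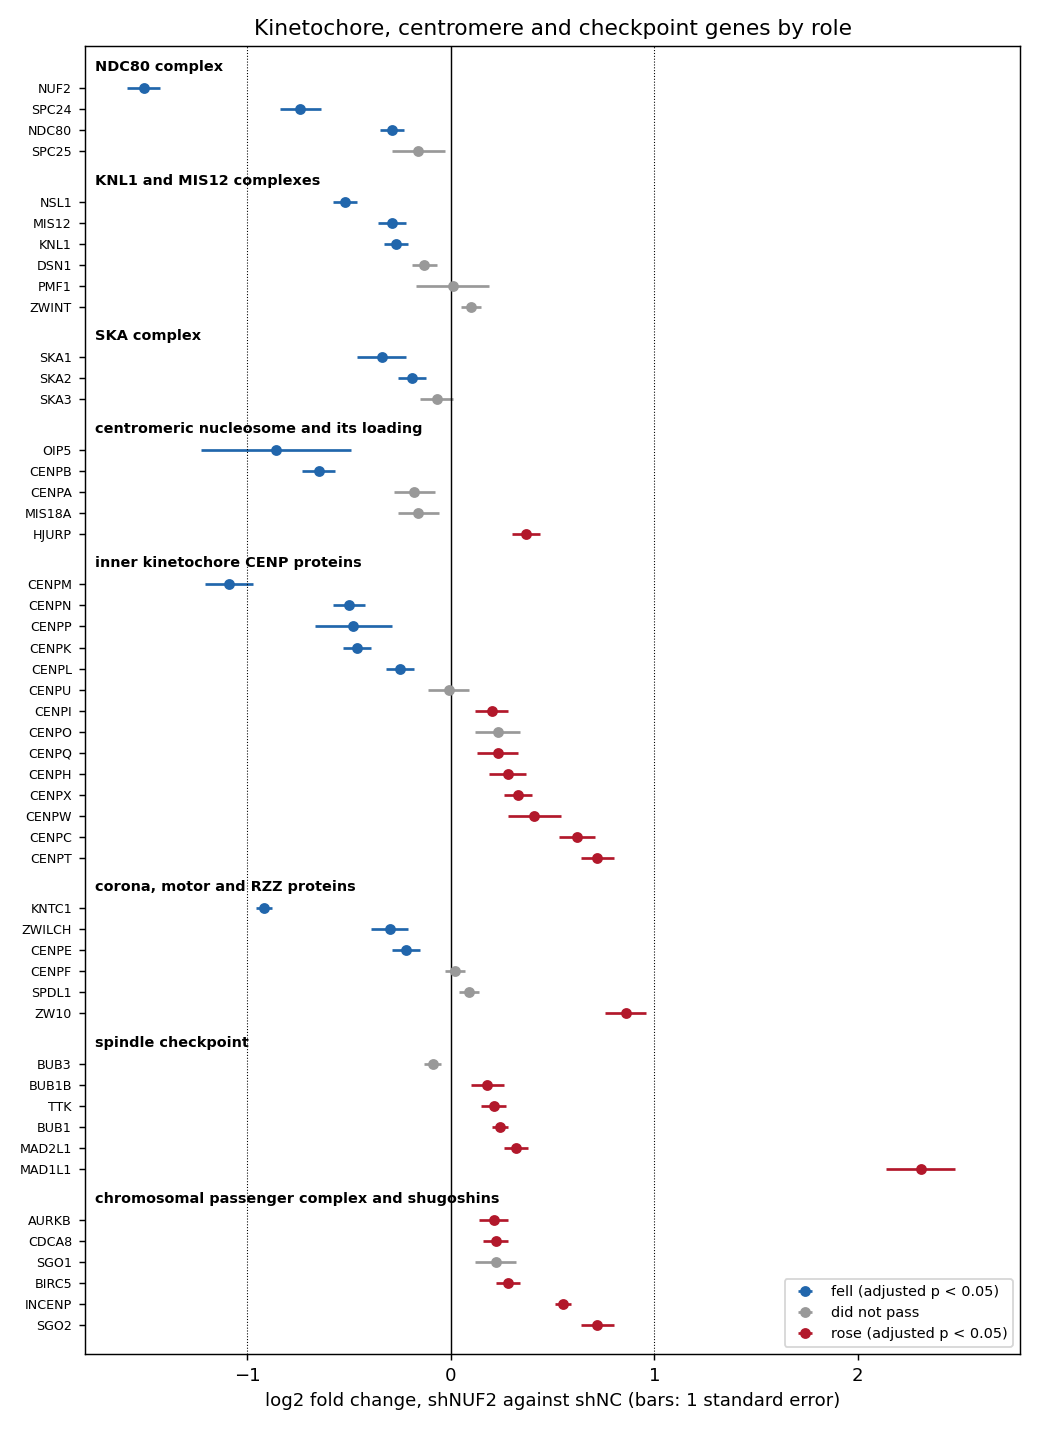
Log2 fold change of each of the 50 genes, shNUF2 against shNC, with 1 standard error, grouped by role; blue genes fell, red genes rose (adjusted p under 0.05) and grey genes did not pass, and dotted lines mark a 2-fold change. NUF2 and CENPM lie beyond the left line and MAD1L1 beyond the right line, while the checkpoint and passenger complex groups hold no blue gene.

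By role the directions were not spread evenly, though no test of the difference between roles was made and the joining of roles into larger groups was done after their values were seen. Of the 13 genes of the NDC80, KNL1, MIS12 and SKA complexes, which form the microtubule-binding side of the kinetochore, 8 fell and 0 rose by edgeR, beside 33.8% and 33.9% of all genes tested, with a median log2 fold change of -0.27. At an unadjusted p under 0.05 the count of higher genes was also 0 by edgeR, DESeq2 and limma. It was 1 with DESeq2's size factors in edgeR, with at least 1 CPM asked in every library, with a block for the replicate number and without shNUF2 replicate 1. Of the 12 genes of the checkpoint, the passenger complex and the shugoshins, 10 rose and 0 fell by edgeR, beside the same 33.9% and 33.8% of all genes, with a median of 0.23. At an unadjusted p under 0.05, 1 of these 12 was lower, and the count was 0 by DESeq2 and 1 by limma. Leaving out any 1 library left 6 to 8 of the 13 lower and 8 to 10 of the 12 higher, whereas TREAT against a 1.2-fold change left 3 of the 13 lower and 3 of the 12 higher, near its 21.1% lower and 23.5% higher of all genes. In the first group 1 gene, ZWINT, passed as higher without shNUF2 replicate 1 or when at least 1 CPM was asked in every library. In the second group BUB3 passed as lower under 5 of the alternatives.

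**Figure D3:**
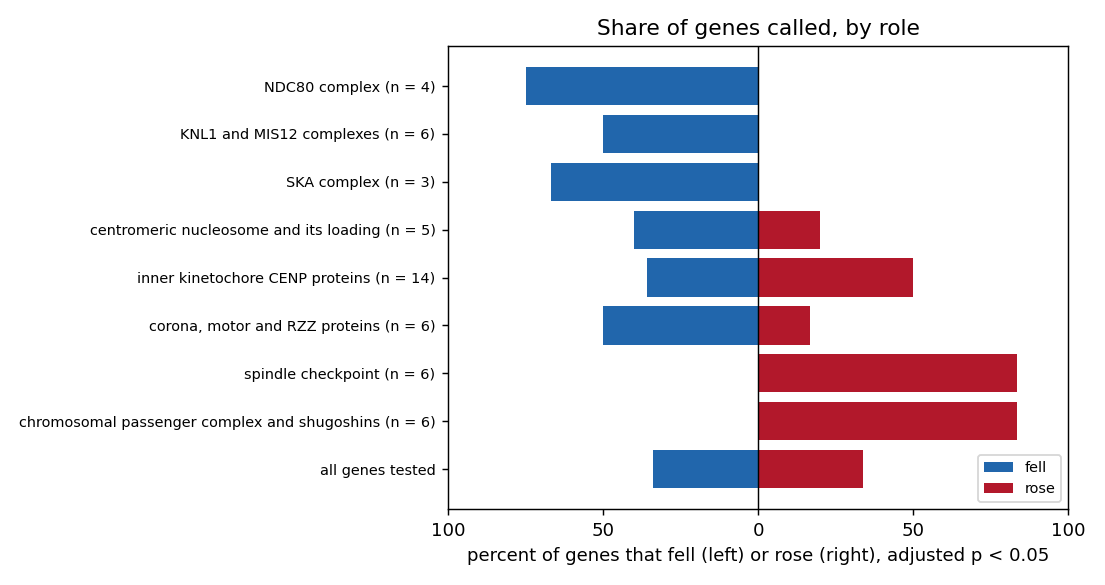
Percent of the genes in each role group that fell (left, blue) or rose (right, red) at an adjusted p under 0.05, with the same shares over all genes tested in the bottom bar. The bars for the outer kinetochore complexes point only to the left and those for the checkpoint and the passenger complex only to the right, in groups of 3 to 6 genes.

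KNL1 and the MIS12 complex link the NDC80 complex to the inner kinetochore. NSL1, a MIS12 complex subunit on chromosome 1, was at 62.5, 65.5 and 60.9 CPM in shNC and at 41.8, 45.0 and 44.4 CPM in shNUF2. Its groups did not overlap, and its fall of 0.52 ± 0.06 on the log2 scale was the steepest of these 6 genes (adjusted p = 4.78e-08, edgeR). MIS12, which gives the complex its name, fell by 0.29, and KNL1, the scaffold on which the BUB proteins dock, fell by 0.27. DSN1, another MIS12 complex subunit, had a log2 fold change of -0.13 (adjusted p = 0.0657, past the threshold as lower in 6 of the alternatives), ZWINT, a KNL1 partner, one of 0.10 (adjusted p = 0.0917) and PMF1 one of 0.01 (adjusted p = 0.956). PMF1 shares 23.3% of its exon bases with PMF1-BGLAP, a readthrough gene on the same strand, and reads from the shared part cannot be given to either gene.

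The SKA complex tracks the ends of microtubules and works with the NDC80 complex. SKA1 was measured at 20.3, 23.3 and 25.1 CPM in shNC and at 16.0, 22.4 and 16.2 CPM in shNUF2. Its groups overlapped through shNUF2 replicate 2, and its fall of 0.34 ± 0.12 (adjusted p = 0.0129, edgeR) did not pass when shNC replicate 3 (adjusted p = 0.0585), shNUF2 replicate 1 (0.0856) or shNUF2 replicate 3 (0.0792) was left out. SKA2 fell by 0.19, a call that was also lost without shNC replicate 3 (adjusted p = 0.0622) or shNUF2 replicate 1 (0.0967). SKA3 had a log2 fold change of -0.07 (adjusted p = 0.443), which ranged from -0.13 without shNC replicate 1 to -0.01 without shNC replicate 3.

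At the centromere itself, the 5 genes of the centromeric nucleosome and its loading were split, with 2 lower, 1 higher and 2 that did not pass, beside 33.8% lower and 33.9% higher of all genes tested. CENPA, the histone variant that marks the centromere, was at 22.7, 21.0 and 24.8 CPM in shNC and at 18.1, 20.5 and 22.0 CPM in shNUF2. These ranges overlapped, and the log2 fold change of -0.18 ± 0.10 did not pass (adjusted p = 0.123, edgeR), though it did in both fits on log2 FPKM (0.0485 and 0.047). HJURP, the chaperone that deposits CENPA, was at 36.8, 36.4 and 33.5 CPM against 47.3, 43.5 and 46.9 CPM. It rose by 0.37 ± 0.07 (adjusted p = 6.39e-05), with every shNUF2 library above every shNC library. CENPB, which binds a motif of the alpha satellite repeat, fell by 0.65 (adjusted p = 5.55e-08), and MIS18A, a part of the complex that readies centromeres for new CENPA, had a log2 fold change of -0.16 (adjusted p = 0.148) and likewise passed as lower in both fits on log2 FPKM (0.0227 and 0.0219).

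OIP5, the partner of MIS18A, had few reads. Its counts were 14, 42 and 41 in shNC and 13, 16 and 17 in shNUF2, so that shNC replicate 1 sat with the knockdown libraries. The fitted fall of 0.86 ± 0.37 (adjusted p = 0.0407, edgeR) was lost in 5 of the 6 fits that left out a library (adjusted p up to 0.204), with DESeq2 (0.0782) and in both fits on log2 FPKM. OIP5 shares 38% of its exon bases with the antisense gene OIP5-AS1, and the strand setting of the counting is not given in the sources used here.

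The inner kinetochore CENP proteins moved in both directions, with 5 of 14 lower (35.7%) and 7 of 14 higher (50%) beside 33.8% and 33.9% of all genes tested, and the direction changed between proteins of one subcomplex. CENPM was the only one of them beyond 2-fold, with 23.8, 23.8 and 19.3 CPM in shNC and 9.94, 9.77 and 11.5 CPM in shNUF2. It fell by 1.09 ± 0.12 on the log2 scale (adjusted p = 6.96e-09, edgeR), and the groups were far apart. CENPM acts in one subcomplex with CENPH, CENPI and CENPK. CENPK fell by 0.46, whereas CENPH rose by 0.28 and CENPI by 0.20. The CENPI call was lost in 7 of the 15 alternatives other than TREAT and the CENPH call without shNC replicate 2 (adjusted p = 0.0632) or shNUF2 replicate 2 (0.0853). CENPL and CENPN, which recognise the CENPA nucleosome together, fell by 0.25 and 0.50.

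CENPC and CENPT are the proteins of the inner kinetochore that reach out to the MIS12 and NDC80 complexes, and both rose. CENPT was at 25.8, 22.5 and 27.0 CPM in shNC and at 43.0, 41.2 and 40.1 CPM in shNUF2. Every shNUF2 library was above every shNC library, with a rise of 0.72 ± 0.08 (adjusted p = 1.96e-08, edgeR). CENPC rose by 0.62 (adjusted p = 1.09e-06). CENPW and CENPX, which with CENPT and CENPS form a nucleosome-like assembly, rose by 0.41 and 0.33. CENPS had 1 to 9 counts per library and was too low to be tested, and its overlap with other genes was not examined.

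Of the CENPO, CENPP, CENPQ and CENPU group, CENPP fell by 0.48 (adjusted p = 0.0297) and CENPQ rose by 0.23 (adjusted p = 0.0497). Both calls were fragile, since the CENPP call was lost in 3 fits that left out a library and with DESeq2, and the CENPQ call in 10 of those 15 alternatives. CENPO had a log2 fold change of 0.23 (adjusted p = 0.0725), which was 0.11 without shNC replicate 1 and passed as higher, at 0.29, without shNC replicate 3 (adjusted p = 0.0416). CENPU had one of -0.01 (adjusted p = 0.942). CENPP, CENPO and CENPN share 42.7%, 31.4% and 22.8% of their exon bases with genes on the opposite strand, so that reads of the pair cannot be told apart without knowing how strand was counted. CENPT shares 19.6% in the same way.

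Among the proteins of the kinetochore corona, the 3 subunits of the RZZ complex went different ways. This complex recruits dynein and the MAD1L1 protein to kinetochores without microtubules. KNTC1, the large subunit also known as ROD, was at 220.5, 225.8 and 225.2 CPM in shNC and at 118.7, 117.7 and 119.0 CPM in shNUF2. With a spread this narrow, its fall of 0.92 ± 0.04 had the smallest p of the 50 genes (adjusted p = 5.47e-16, edgeR). ZW10 was at 13.7, 13.3 and 15.8 CPM in shNC and at 27.0, 24.4 and 26.2 CPM in shNUF2. It rose by 0.86 ± 0.10 (adjusted p = 4.01e-08), and its groups did not overlap. ZWILCH fell by 0.30 (adjusted p = 0.00348).

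Of the other corona genes, CENPE, a kinesin that carries chromosomes towards the spindle equator, fell by 0.22 (adjusted p = 0.00481), although its ranges overlapped through shNC replicate 1. CENPF, a large coat protein, had a log2 fold change of 0.02 (adjusted p = 0.694), and SPDL1, an adaptor for dynein, one of 0.09 (adjusted p = 0.136), which passed as higher at 0.14 without shNC replicate 2 (adjusted p = 0.0316).

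**Figure D4:**
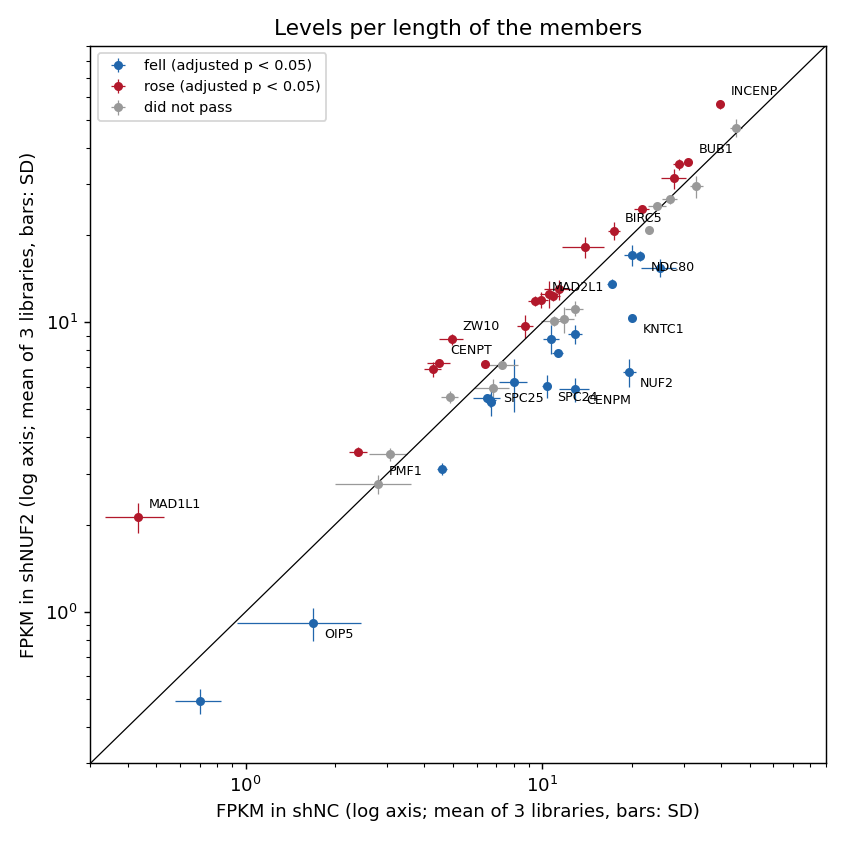
Mean FPKM of each gene in shNC (horizontal, log axis) and in shNUF2 (vertical, log axis) with SD over 3 libraries; the line marks equal levels, and colours follow the calls. Most genes lie near the line, NUF2, KNTC1 and CENPM lie below it, and MAD1L1 lies furthest above it at the low end of the range.

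Per length the 50 genes spanned about 2 orders of magnitude. In shNC the highest was ZWINT at 44.9 ± 2.03 FPKM, followed by INCENP at 39.6 ± 0.770 and DSN1 at 33.0 ± 1.68. The lowest was MAD1L1 at 0.434 ± 0.0981, below CENPP at 0.704 ± 0.124 and OIP5 at 1.69 ± 0.754. The ranges of ZWINT and INCENP did not overlap in shNC. In shNUF2 INCENP came first at 56.6 ± 2.18 FPKM and ZWINT second at 47.0 ± 3.38.

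All 6 checkpoint genes except BUB3 rose, by amounts that differed widely. MAD1L1, the kinetochore-bound partner that converts MAD2L1 into its active form, had counts of 34, 50 and 65 in shNC and of 232, 174 and 243 in shNUF2. In CPM these were 2.39, 3.13 and 3.78 against 17.2, 13.4 and 16.2, with no overlap. Its rise of 2.31 ± 0.17 on the log2 scale (adjusted p = 3.54e-12, edgeR), a ratio of means of 5.03, was the largest change of the 50 genes. Even so, its mean level stayed low per length, at 2.13 ± 0.252 FPKM in shNUF2, and it ranked 50 of 50 in shNC and 48 of 50 in shNUF2.

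MAD2L1, which inhibits the activator of the anaphase-promoting complex, was at 57.6, 52.4 and 51.2 CPM in shNC and at 63.8, 71.1 and 65.9 CPM in shNUF2. It rose by 0.32 ± 0.06 (adjusted p = 8.71e-05, edgeR), with all shNUF2 libraries above all shNC libraries. BUB1, a kinase that marks the inner centromere and recruits other checkpoint proteins, was at 192.6, 198.3 and 189.4 CPM against 234.0, 225.6 and 224.9 CPM. Its rise of 0.24 ± 0.04 was small but larger than the spread in both groups (adjusted p = 2.64e-05).

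TTK, the kinase that starts checkpoint signalling and is also called MPS1, rose by 0.21 (adjusted p = 0.0051). BUB1B rose by 0.18 (adjusted p = 0.035), a call lost in 9 of those 15 alternatives (adjusted p up to 0.149 without shNUF2 replicate 2), and it shares 10.2% of its exon bases with the readthrough gene BUB1B-PAK6. BUB3, the partner of BUB1 and BUB1B, had a log2 fold change of -0.09 ± 0.04 (adjusted p = 0.0677), and it passed as lower with upper quartile factors (adjusted p = 0.049), with library totals only (0.011), without a filter on low counts (0.027) and in both fits on log2 FPKM (0.0148 and 0.0154).

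**Figure D5:**
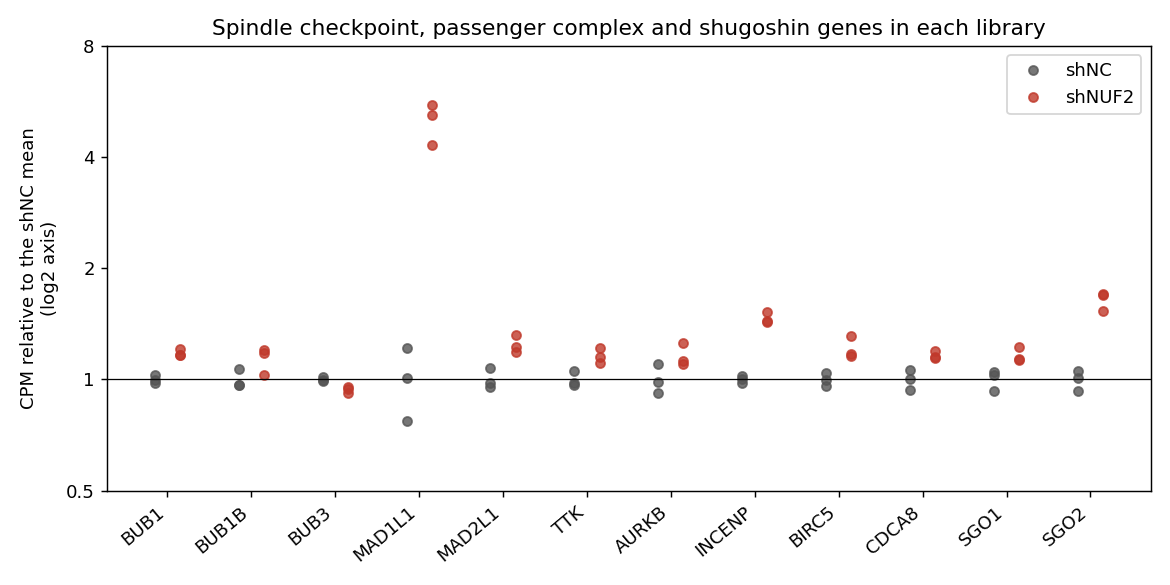
CPM of the 12 checkpoint, passenger complex and shugoshin genes in each library, divided by the mean of the shNC libraries (log2 axis; shNC grey, shNUF2 red). MAD1L1 stands at more than 4 times its control mean, SGO2 and INCENP follow, and the others except BUB3 sit slightly above 1.

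The chromosomal passenger complex is the AURKB kinase with its scaffold INCENP and the targeting subunits BIRC5 and CDCA8. AURKB was at 56.6, 67.6 and 60.5 CPM in shNC and at 67.8, 77.0 and 69.2 CPM in shNUF2. Its rise of 0.21 ± 0.07 (adjusted p = 0.00682, edgeR) came with a gap of under 1 CPM between the groups. Without shNC replicate 1 (adjusted p = 0.0549) or shNUF2 replicate 2 (0.0692) and on log2 FPKM (0.0624 and 0.0611) it did not pass. BIRC5, known as survivin, was at 63.0, 68.5 and 65.3 CPM against 77.1, 76.2 and 86.2 CPM. It rose by 0.28 ± 0.06 (adjusted p = 1.49e-04). INCENP rose by 0.55 (adjusted p = 2.41e-11), the steepest of the complex, and CDCA8, known as borealin, by 0.22 (adjusted p = 0.00372).

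The shugoshins SGO1 and SGO2 guard centromeric cohesin. SGO2 was at 27.2, 28.4 and 25.0 CPM in shNC and at 45.8, 45.6 and 41.0 CPM in shNUF2. It rose by 0.72 ± 0.08 (adjusted p = 1.06e-08, edgeR), and the groups were well apart. For SGO1 the log2 fold change was 0.22 ± 0.10 (adjusted p = 0.0544), with all shNUF2 libraries above all shNC libraries, and it passed with DESeq2 size factors (adjusted p = 0.0472) and when at least 1 CPM was asked in every library (0.0369).

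The promoters of the 50 genes were read for sequence features that their selection did not use. RefSeq promoters (GRCh38, 250 bases before to 50 after the start) were given for 41 of the 50 genes, in 48 entries since some genes have several starts. Genes transcribed in G2 and M phases are known to carry CCAAT boxes and a CHR element near their start. The letters TTTGAA or TTTAAA, searched on both strands as CHR-like, were in 22 of the 48 entries (45.8%), in 24% of all 35116 RefSeq promoters and in 17.1% of the 15132 promoters of genes tested here. CCAAT on either strand was in 32 of the 48 entries (66.7%), and in 34.6% both of all promoters and of those of tested genes. The 2 motifs can overlap by a base, as where TTTGAA runs into ATTGG. Counted by gene, a CHR-like motif was held by 5 of 14 genes that fell, 8 of 16 that rose and 7 of 11 that did not pass, and CCAAT by 8 of 14, 12 of 16 and 8 of 11. These counts are descriptions, and a match in letters is not a site in use.

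The following promoters, from 120 bases before the start to 30 after it, are printed for the NDC80 complex and for a gene of the passenger complex and one of the checkpoint that rose, with motif matches on either strand in capitals.
NUF2 (chr1:163321834-163321983, plus strand): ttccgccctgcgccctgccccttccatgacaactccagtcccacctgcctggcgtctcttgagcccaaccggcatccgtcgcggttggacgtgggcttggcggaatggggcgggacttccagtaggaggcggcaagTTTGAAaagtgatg
NDC80 (chr18:2571437-2571586, plus strand): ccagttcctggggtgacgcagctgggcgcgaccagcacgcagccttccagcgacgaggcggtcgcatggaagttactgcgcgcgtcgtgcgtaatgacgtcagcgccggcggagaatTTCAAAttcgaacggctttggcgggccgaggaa
SPC24 (chr19:11155753-11155902, minus strand): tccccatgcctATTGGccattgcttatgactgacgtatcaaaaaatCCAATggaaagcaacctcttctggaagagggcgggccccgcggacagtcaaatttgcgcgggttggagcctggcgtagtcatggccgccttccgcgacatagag
SPC25 (chr2:168890401-168890550, minus strand): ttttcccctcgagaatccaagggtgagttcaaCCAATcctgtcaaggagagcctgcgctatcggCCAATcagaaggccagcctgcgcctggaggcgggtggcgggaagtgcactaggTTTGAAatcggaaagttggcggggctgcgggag
INCENP (chr11:62123891-62124040, plus strand): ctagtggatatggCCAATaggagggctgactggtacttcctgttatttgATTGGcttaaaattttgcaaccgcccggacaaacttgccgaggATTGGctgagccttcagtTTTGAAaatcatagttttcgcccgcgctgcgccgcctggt
MAD1L1 (chr7:2232916-2233065, minus strand): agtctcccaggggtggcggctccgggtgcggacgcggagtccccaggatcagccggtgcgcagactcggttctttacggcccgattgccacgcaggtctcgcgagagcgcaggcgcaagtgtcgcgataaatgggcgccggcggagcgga
NUF2, NDC80, SPC25 and INCENP each show a CHR-like match in this window, and SPC24 and SPC25 show CCAAT on one strand or the other. INCENP holds 3 CCAAT matches and 1 CHR-like match. MAD1L1 and SPC24 hold no CHR-like match in the whole RefSeq entry, and MAD1L1 holds no CCAAT. Members with and without these letters are found among the genes that fell and among those that rose.

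Position in the genome was also compared. KNL1 and BUB1B are the only pair of the 50 within 500 kb of each other, on chromosome 15, and KNL1 fell while BUB1B rose.

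Neighbouring parts of the mitotic machinery, in lists chosen with earlier results of these data known, also held genes that fell and genes that rose, and their shares are set beside the 33.8% lower and 33.9% higher of all genes tested. Of 20 tested genes among 21 other kinetochore and checkpoint genes, 8 fell (40%) and 6 rose (30%), with a median log2 fold change of -0.04. ITGB3BP, known as CENPR, fell by 0.58, and DYNLT3, a dynein light chain, rose by 0.57. Of 21 genes of the anaphase-promoting complex and separase, 11 fell (52.4%) and 5 rose (23.8%), with a median of -0.14. ANAPC16, a subunit of that complex, fell by 1.06, and FZR1, an activator of it, rose by 0.76. Of 21 cohesin and condensin genes 9 fell (42.9%) and 4 rose (19%), with a median of -0.05, and PDS5A, a cohesin regulator, fell by 0.63 while CDCA5, known as sororin, rose by 0.59.

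Cell cycle markers give the setting for genes that are transcribed in a phase. Of 20 G2 and M phase markers 5 fell (25%) and 8 rose (40%), beside 33.8% and 33.9% of all genes tested (median 0.03), with a summed level of 3132 to 3202 CPM in shNC and 2978 to 3100 CPM in shNUF2. TOP2A, a topoisomerase, fell by 0.67, from a mean of 798.5 to one of 500.4 CPM, which is more than the whole difference between the summed levels, so the other 19 markers summed higher in shNUF2. ANLN, a cytokinesis scaffold, rose by 0.56. Of 20 G1 and S phase markers 11 fell (55%) and 2 rose (10%) against the same background (median -0.15), and their summed level was 2610 to 2632 CPM in shNC and 2221 to 2298 CPM in shNUF2. MCM6, a subunit of the replicative helicase, fell by 0.63, and CDT1, which loads that helicase, rose by 0.67. The part of the cell cycle in the changes of the 50 genes was not tested.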

How the data were processed

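RNA was sequenced from OVCAR3 cells in 3 shNC and 3 shNUF2 libraries. The authors deposited read counts per gene without normalization, and FPKM values calculated from the counts and a gene length. Their processing notes name cutadapt, HISAT, HTSeq and GRCh38.p13, with no version, and the annotation release and the strand setting are not given in the sources used here. Of the 50 genes 19 share exon bases with another gene on either strand, and 7 (SKA2, CENPC, CENPI, CENPU, BUB1, BUB3 and SGO1) have pseudogenes named after them, so that their counts are less certain. The table also holds functional annotation, which was not used.

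Counts were fitted over the whole table with edgeR 4.0.16 in R 4.3.3 (TMM factors, filterByExpr, quasi-likelihood test, Benjamini-Hochberg adjustment over 12874 genes, no covariates). A change was called at an adjusted p under 0.05. The common coefficient of biological variation was 4.93%, and total counts of 13057534 to 16995452 set the precision. CPM used TMM-scaled library sizes. Ratios of FPKM were compared by the exact two-sided permutation test. The script was tested on simulated data. Replicate numbers are shared by the groups, but same-numbered samples showed no common deviation (correlations of 0.02, 0.005 and -0.03), so no block was used. Exon overlaps and the hairpin target came from GENCODE release 29, and promoters from RefSeq.

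The 50 genes, their roles, the related lists and the markers were chosen with earlier results of these data known. Values per library are given for the NDC80 complex, for genes beyond 2-fold, for the called genes with the most negative and the most positive fold change in each role and for CENPA, BUB1, AURKB, BIRC5 and MAD2L1. From each related list the called genes with the most negative and the most positive fold change were named. Alternatives were other normalisations, DESeq2 1.42.0, a replicate block, looser and stricter filters, fits with 1 library fewer, limma 3.58.1 on log2(FPKM + 1) and log2(FPKM + 0.1), and edgeR's TREAT.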

Additional observations from a re-analysis of the deposited data

How the results depend on the processing

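NUF2 kept its fall in every alternative run, from -1.42 (limma on log2(FPKM + 1)) to -1.54 on the log2 scale, and from -1.44 to -1.60 with 1 library left out. The counts of 18 lower and 19 higher genes stayed at 16 to 21 and 16 to 21 under other normalisations, filters, DESeq2 and limma, and at 15 to 17 and 15 to 19 with 1 library left out. TREAT against a 1.2-fold change moved them to 8 and 6. The counts beyond 2-fold were 2 to 3 lower and 1 higher throughout. No paired relation of the replicate numbers was found, and the replicate block gave 17 lower and 19 higher genes and a NUF2 log2 fold change of -1.51, with the OIP5 call lost (adjusted p = 0.0552). No scaling moved the median of all genes past -0.049 on the log2 scale, whereas without a filter on low counts, over 16861 genes, it was 0.073.

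Near-zero fold changes changed sign. PMF1 went from 0.01 to -0.02 with library totals only, to -0.01 without a filter and ranged from -0.12 to 0.27 with 1 library left out. CENPU went from -0.01 to 0.01 with at least 1 CPM in every library and ranged from -0.09 to 0.10 with 1 library left out. CENPF went from 0.02 to -0.02 with library totals only, to -0.01 without a filter and in both limma fits, and ranged from -0.03 to 0.05 with 1 library left out. None of these values passed the test.

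In the related lists TREAT, which called 21.1% of all genes lower and 23.5% higher, left 4 lower and 2 higher of 20 other kinetochore genes, 4 lower and 4 higher of 21 genes of the anaphase-promoting complex list, 4 lower and 1 higher of 21 cohesin and condensin genes, 2 lower and 3 higher of 20 G2 and M phase markers, and 5 lower and 1 higher of 20 G1 and S phase markers. G2 and M phase markers that fell went from 5 to 3 with DESeq2 or without shNUF2 replicate 1. G1 and S phase markers that rose went from 2 to 1 with library totals only, DESeq2, no filter, both limma fits, or without shNC replicate 2 or shNUF2 replicate 3. The share of promoters with CCAAT was 29.2% in the 100 bases around the start, beside 10.7% of all promoters and 9.6% of those of tested genes, and that of CHR-like letters 37.5%, beside 7.62% and 5.11%. Low counts limit OIP5, MAD1L1 in shNC and CENPP, and a single hairpin limits what any fold change can be assigned to. The cause of these shifts was not tested.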
